A study of Arabis alpina with 9 samples.

Results

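The genes described here are the *A. alpina* orthologs of the Arabidopsis *SQUAMOSA PROMOTER BINDING PROTEIN-LIKE* (*SPL*) genes that the age pathway controls through miRNA 156 (miR156). They were picked by name, as every gene of the deposited table whose listed Arabidopsis ortholog was 1 of 10 *SPL* loci. Their values did not enter this rule, but earlier results of these data were known when it was set. Of these 10 loci, 9 had a gene in the table, which makes 9 of its 30690 genes: *AaSPL2*, *AaSPL3*, *AaSPL4*, *AaSPL6*, *AaSPL9*, *AaSPL10*, *AaSPL11*, *AaSPL13A* and *AaSPL15*. No row used here carried the *SPL13B* locus (AT5G50670), which was not analysed.

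SPL proteins are plant transcription factors that share a zinc-binding DNA-binding domain, the SBP domain. In young Arabidopsis plants, abundant miR156 pairs with a site in the mRNA of a subset of the *SPL* genes, so that these mRNAs are cleaved or poorly translated. As the plant ages miR156 declines, SPL proteins accumulate, and they activate *MIR172* and flowering genes, while miR172 in turn represses the AP2-like floral repressors.

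RNA was sequenced from dissected shoot apices of *A. alpina*, a perennial relative of Arabidopsis, grown for 3 weeks in long days of 16 h light and 8 h dark. The 3 genotypes were the wild type, which is the accession Pajares, and the *pep1-1* and *pep2* mutants in that background, with 3 libraries each and no cold treatment in any group. *PEP1* is the ortholog of the Arabidopsis floral repressor gene *FLC*, and *PEP2* is the ortholog of *AP2*. By the study's methods both mutants came from chemical (EMS) mutagenesis, the *pep2* allele was *pep2-1*, and its plants were homozygotes picked by genotyping from a segregating family, whereas no such selection was described for the other groups. Each mutant is represented by 1 allele, and other changes carried from the mutagenesis cannot be told apart from the named lesion. The comparisons ask which transcripts depend on *PEP1* and which on *PEP2* before any exposure to cold.

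The libraries held between 12871903 and 23829973 reads in genes, and 21713 genes passed the filter on low counts and were tested. No row of the table carried *FLC* as its ortholog, so the level of *PEP1* was not analysed here. *PEP2* (AALP_AA7G245300) had a mean of 60.1 ± 6.63 CPM (reads scaled to the size of the library; SD, n = 3) in wild-type apices and 79.2 ± 6.45 in *pep2* apices. Its mRNA level is no check of the label, since a mutated gene can still be transcribed. Of the shoot meristem genes, *STM* and *KNAT1* were present in all libraries, while *CLV3* and *WUS*, which mark a few cells, were below 1 CPM in each. Of 7 floral marker genes, *AP1* and *AG* had no reads, *PI*, *SEP1* and *SEP3* were below 1 CPM in every library, *AP3* was between 0.433 and 1.27 CPM, and *LFY* was between 1.17 and 3.32 CPM. Leaf photosynthetic genes summed to between 4941 and 8282 CPM. Vascular markers summed to 360–382 CPM in *pep2* against 247–307 for the wild type and 209–327 for *pep1-1*, and meristem markers to 246–318 against 189–253 and 171–252. Trichome markers leaned the other way with overlapping ranges, at 82.5–109.9 in *pep2* against 102.6–146.8 and 109.7–156.0. Root markers summed to 102–114 in *pep2* against 107–111 and 114–126, nearly all of it from *SCR* and *SHR* (wild-type means 51.1 and 56.5 CPM). Of the 7 root markers, *PLT2* had no reads, and *PLT1*, *COBL9* and *RHD6* were below 1 CPM in every library. *WOX5* had a wild-type mean of 1.12 CPM. The part of these marker groups in the results was not tested. In bulk apices such as these, fewer cells of a type and less RNA per cell cannot be told apart. Replicate A had the lowest score in each genotype on the first principal component, which carried 49.5% of the variance. On it replicates B and C of *pep2* scored -12.1 and -22, below replicate A of *pep1-1* (-3.61). Those of the wild type scored 18.5 and 18.1, and those of *pep1-1* 26.4 and 28.5. The axis therefore mixed replicate A with genotype.

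*AaSPL15* was the only member that changed between genotypes by the test used. Its level was about 4.27 times as high in *pep1-1* apices as in wild-type apices, with no overlap of libraries, and its *pep2* libraries overlapped the wild type. No other member passed the test in any comparison. The per-library plot of the 9 genes shows both features.

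**Figure D1:**
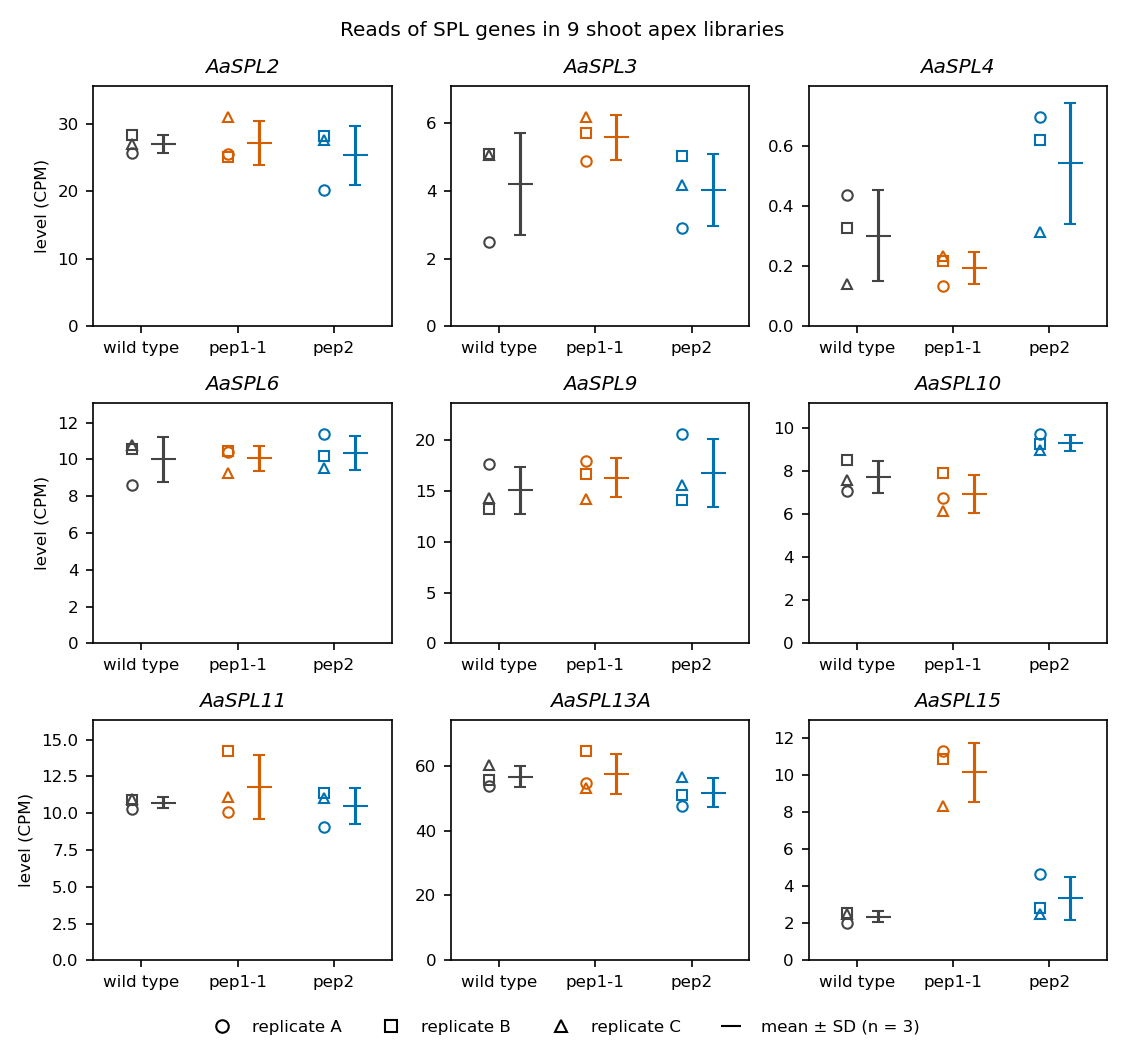
Level of each *SPL* gene in CPM (vertical axis from 0, scale set per gene) in the wild type, *pep1-1* and *pep2*; symbols are the libraries of replicates A, B and C, and bars are the mean ± SD of 3 libraries. *AaSPL15* lies between 8.35 and 11.3 CPM in *pep1-1* and between 2.04 and 4.67 CPM in all other libraries.

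*AaSPL15* (AALP_AA5G233200, ortholog of AT3G57920, chromosome 5, 19154645 to 19156210 in the coordinates of the deposited table) corresponds to a gene that, in Arabidopsis, promotes flowering at the shoot meristem together with SOC1 and also slows the formation of leaves. The wild-type libraries A, B and C stood at 2.04, 2.54 and 2.53 CPM, from 28, 62 and 36 reads. Those of *pep1-1* stood at 11.3, 10.9 and 8.35 CPM, from 167, 151 and 107 reads. Every *pep1-1* library was above every wild-type library. The increase was 2.09 on the log2 scale (SE 0.24; 95% interval 1.57 to 2.62), which is 4.27-fold (2.96 to 6.14), with an adjusted p of 0.00671 in edgeR's quasi-likelihood test over all genes. A gene was called when its adjusted p was at most 0.05 and its log2 fold change was at least 1 in either direction, the limits used in the study's methods. *AaSPL15* was the only one of the 8 tested members called higher in *pep1-1*, where 0.0829% of all tested genes were called higher (18 genes), and no member was among the 0.0783% called lower. It was also the only member past the adjusted p alone (0.193% of tested genes), with an unadjusted p under 0.05 (6.37%) or without overlap of libraries (10.9%). By fold change it stood 12th of the 18 genes called higher. Without replicate B of the wild type, where it had the most reads of that genotype, the log2 fold change was 2.15 but the adjusted p was 0.0530 in edgeR, and then 0 members were called.

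The *pep2* libraries A, B and C stood at 4.67, 2.86 and 2.52 CPM for *AaSPL15*, from 74, 37 and 32 reads. Replicate A was the highest, and replicate C was just below the 2 higher wild-type libraries, so the groups overlapped. The log2 fold change relative to wild-type apices was 0.51 (SE 0.25; 95% interval -0.06 to 1.07) with an adjusted p of 0.376 in edgeR, and the interval reached past the fold limit. The value rested on replicate A: without the A libraries of all 3 genotypes it was 0.09, with an adjusted p of 0.870. For *pep2* over the wild type, edgeR called 0.175% of all tested genes higher and 0.659% lower, and 1.52% passed the adjusted p alone. Of the 8 tested members 0 were in any of these sets by edgeR, 0 were called by DESeq2 or limma-voom, and 0 had an unadjusted p under 0.05, which 15.3% of all tested genes had.

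The direct comparison of the mutants gave *AaSPL15* a log2 fold change of -1.59 in *pep2* over *pep1-1* (SE 0.23; 95% interval -2.10 to -1.07; 0.333 of the *pep1-1* level; adjusted p = 0.0103 in edgeR). All 3 *pep2* libraries lay below all 3 *pep1-1* libraries. It was the one member called lower, where 0.649% of tested genes were called lower (141 genes) and 0.686% higher, and the one member past the adjusted p alone, which 2.51% of tested genes were. By fold change it stood 62nd of the 141. This call held when any single library was left out, with log2 values from -1.92 to -1.42. The adjusted p then ranged from 0.00556 to 0.0491 in edgeR, so its upper end was close to the limit. The 3 comparisons use the same 9 libraries, so they are not independent of each other. With 3 libraries against 3, an exact two-sided permutation test of a single gene cannot give a p below 0.1, and it gave 0.1 for *AaSPL15* in both comparisons with *pep1-1*.

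**Figure D2:**
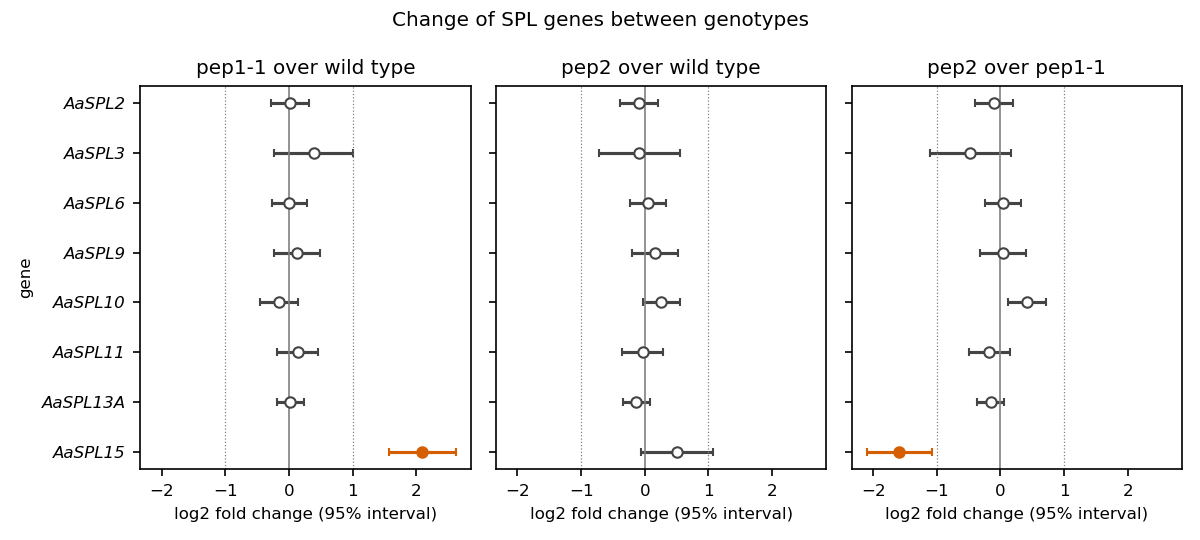
Log2 fold change (horizontal axis) of the 8 tested *SPL* genes in the 3 comparisons, with 95% intervals from edgeR; filled orange points were called, and dotted lines mark a log2 fold change of 1 in either direction. Only *AaSPL15* is called, at 2.09 in *pep1-1* over the wild type and at -1.59 in *pep2* over *pep1-1*.

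*AaSPL9* (AALP_AA4G211000, ortholog of AT2G42200, chromosome 4, 19739709 to 19742069) is the member closest to *AaSPL15* by the kinship of their Arabidopsis orthologs, which act together on leaf initiation and activate *MIR172B*. Its wild-type libraries A, B and C were at 17.6, 13.3 and 14.3 CPM, those of *pep1-1* at 17.99, 16.7 and 14.2, and those of *pep2* at 20.6, 14.1 and 15.6. The 3 groups overlapped, and replicate A was the highest library of each. Relative to wild-type apices the log2 fold change was 0.12 in *pep1-1* (95% interval -0.24 to 0.49; adjusted p = 0.992) and 0.17 in *pep2* (-0.20 to 0.53; adjusted p = 0.671), both by edgeR. The log2 change of 2.09 found for *AaSPL15* in *pep1-1* lay outside the *pep1-1* interval of *AaSPL9*. In *pep2* the *AaSPL15* value of 0.51 lay inside the *pep2* interval of *AaSPL9*.

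*AaSPL3* and *AaSPL4* are orthologs of the small *SPL* genes, which in Arabidopsis act in the floral transition and encode little more than the SBP domain. *AaSPL3* (AALP_AAs55026U000900, ortholog of AT2G33810, on an unplaced scaffold, 81833 to 82318) had wild-type libraries A, B and C at 2.48, 5.07 and 5.05 CPM, *pep1-1* libraries at 4.87, 5.70 and 6.17, and *pep2* libraries at 2.904, 5.02 and 4.17. Replicate A was the lowest library in each genotype, and the groups overlapped. The intervals of *AaSPL3* were the widest of the 8 tested members in all 3 comparisons. Its log2 fold change was 0.39 in *pep1-1* over the wild type (95% interval -0.23 to 1.01; adjusted p = 0.938 by edgeR), -0.09 in *pep2* over the wild type (-0.72 to 0.55) and -0.47 in *pep2* over *pep1-1* (-1.11 to 0.16; adjusted p = 0.402). Without replicate A of the wild type the first of these was 0.14 and the second -0.34, and without replicate A of *pep2* the second was 0.11 and the third -0.28.

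*AaSPL4* (AALP_AA4G030800, ortholog of AT1G53160, chromosome 4, 2963445 to 2964380) had too few reads to be tested. Its libraries A, B and C held 6, 8 and 2 reads for the wild type, 2, 3 and 3 for *pep1-1*, and 11, 8 and 4 for *pep2*. The summed reads gave 0.305 CPM for the wild type (exact 95% Poisson interval 0.174 to 0.496), 0.193 for *pep1-1* (0.0833 to 0.380) and 0.554 for *pep2* (0.351 to 0.832), intervals that cover counting error only. All 3 *pep2* libraries were above all 3 *pep1-1* libraries, but a difference was not detectable at this depth: with no filter on low counts the log2 fold change of *pep2* over *pep1-1* was 1.47 (SE 0.58) with an adjusted p of 0.228 in edgeR. Another small gene, *AaSPL5*, also a miR156 target in Arabidopsis but not among the 10 loci, had between 2 and 9 reads in each library.

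*AaSPL2*, *AaSPL10* and *AaSPL11* are orthologs of a group that, in Arabidopsis, shapes leaves and other lateral organs as the shoot matures. *AaSPL11* (AALP_AA1G263700, ortholog of AT1G27360, 18487179 to 18489646) and *AaSPL10* (AALP_AA1G263800, ortholog of AT1G27370, 18490672 to 18493465) are neighbours on chromosome 1, with 1026 bp between them; no member overlaps another gene in the table. *AaSPL10* had wild-type libraries A, B and C at 7.07, 8.55 and 7.58 CPM, *pep1-1* libraries at 6.76, 7.93 and 6.17, and *pep2* libraries at 9.72, 9.27 and 8.98. All *pep2* libraries were above all libraries of both other genotypes. Such separation was common in these data: libraries did not overlap for 21.5% of all tested genes between *pep2* and the wild type, against 1 of the 8 tested members, and for 24.1% between *pep2* and *pep1-1*, against 2 members, *AaSPL10* and *AaSPL15*. The log2 fold change of *AaSPL10* was 0.26 relative to wild-type apices (SE 0.13; 95% interval -0.03 to 0.55; adjusted p = 0.370) and 0.42 relative to *pep1-1* (SE 0.13; 0.13 to 0.72; adjusted p = 0.128), both by edgeR, so neither passed. In the second comparison its unadjusted p was 0.00985; 2 members, again *AaSPL10* and *AaSPL15*, had one under 0.05, as did 19.1% of all tested genes.

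*AaSPL11*, its neighbour, had wild-type libraries A, B and C at 10.3, 10.9 and 10.9 CPM, *pep1-1* libraries at 10.1, 14.2 and 11.1, and *pep2* libraries at 9.09, 11.4 and 11.03. The groups overlapped, with replicate A lowest in each, and the log2 fold change of *pep2* over *pep1-1* was -0.17 (95% interval -0.50 to 0.15), of the opposite sign to that of *AaSPL10*. *AaSPL2* (AALP_AA6G151100, ortholog of AT5G43270, chromosome 6, 13052937 to 13054571) had wild-type libraries at 25.6, 28.3 and 26.95 CPM, *pep1-1* libraries at 25.5, 25.02 and 30.9, and *pep2* libraries at 20.2, 28.1 and 27.6. Replicate A of *pep2* was the lowest of the 9, and the groups overlapped.

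*AaSPL13A* (AALP_AAs48765U000400, ortholog of AT5G50570, on an unplaced scaffold, 23665 to 26067) corresponds to a gene that in Arabidopsis promotes the adult vegetative phase and flowering. It was the most read member, with wild-type libraries A, B and C at 53.8, 55.6 and 60.3 CPM, *pep1-1* libraries at 54.6, 64.4 and 53.2, and *pep2* libraries at 47.6, 50.9 and 56.4. The groups overlapped, and its intervals were the narrowest of the members, with a log2 fold change of 0.02 in *pep1-1* (95% interval -0.19 to 0.24) and -0.13 in *pep2* (-0.35 to 0.08) relative to wild-type apices. *AaSPL6* (AALP_AA2G117800, ortholog of AT1G69170, chromosome 2, 17795545 to 17796907), whose Arabidopsis ortholog has a known part in immunity, had wild-type libraries at 8.60, 10.6 and 10.8 CPM, *pep1-1* libraries at 10.4, 10.5 and 9.29, and *pep2* libraries at 11.4, 10.2 and 9.53. Its groups overlapped as well, and its 3 log2 fold changes lay between 0.00 and 0.05.

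Among the 7 tested members other than *AaSPL15*, the log2 fold changes ran from -0.16 to 0.39 in *pep1-1* over the wild type, from -0.13 to 0.26 in *pep2* over the wild type and from -0.47 to 0.42 in *pep2* over *pep1-1*. The lowest adjusted p among them was 0.128 in edgeR. In *pep1-1* over the wild type the highest upper bound of their 95% intervals was 1.01, below the lower bound of 1.57 for *AaSPL15*. The median log2 fold change of the 8 tested members was 0.07, 0.01 and -0.13 in the 3 comparisons, where the median over all tested genes was -0.0025, -0.0013 and -0.0068.

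Levels were compared between genes only per transcript length. For this the authors' FPKM (fragments per kilobase of transcript, scaled to sequencing depth), given once per genotype, set the order, and the CPM of each library divided by the length that this FPKM implies (CPM per kb) gave the spread. In wild-type apices *AaSPL13A* (25.5 ± 1.502 CPM per kb; SD, n = 3), *AaSPL2* (24.5 ± 1.22) and *AaSPL3* (21.4 ± 7.59) were highest and overlapped. *AaSPL9* (10.5 ± 1.59) and *AaSPL6* (10.4 ± 1.27) followed and also overlapped. *AaSPL11* (4.68 ± 0.163), *AaSPL10* (2.96 ± 0.288), *AaSPL15* (2.20 ± 0.264) and *AaSPL4* (0.867 ± 0.431) were each separated from the next. *AaSPL3* stood in the top band by its short transcript, with an implied length of 0.197 kb and a gene span of 485 bp against 2.22 kb and 2402 bp for *AaSPL13A*, so its place rests on the length that Cuffdiff used.

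In *pep1-1* the order of the other members was that of the wild type, apart from *AaSPL3*, which was first at 28.3 ± 3.34 CPM per kb but overlapped *AaSPL13A*. *AaSPL15* stood in the sixth place and not the eighth. At 9.46 ± 1.48 CPM per kb it overlapped *AaSPL6* and was above *AaSPL11* and *AaSPL10* in every library. Among all genes with an authors' FPKM above 0, *AaSPL15* stood at the 26.9th percentile in wild-type apices, the 52.3rd in *pep1-1* and the 31.6th in *pep2*. The order in *pep2* was that of the wild type, except that the libraries of *AaSPL10* (3.57 ± 0.144 CPM per kb) and *AaSPL15* (3.11 ± 1.08) overlapped.

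**Figure D3:**
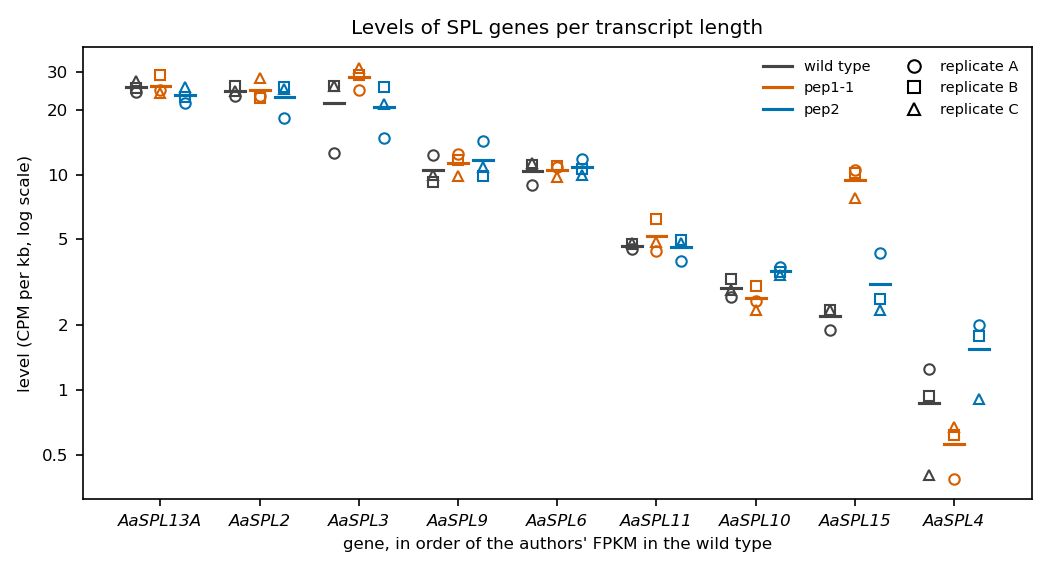
CPM per kb of the 9 *SPL* genes (vertical axis, log scale) in order of the authors' FPKM in the wild type, coloured by genotype, with a symbol per library and a line at each mean of 3 libraries. *AaSPL15* has means of 2.20 (wild type), 9.46 (*pep1-1*) and 3.11 (*pep2*), while *AaSPL13A*, *AaSPL2* and *AaSPL3* are the top 3 genes in all genotypes.

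The ratio of *AaSPL15* to *AaSPL9* per length was 0.155, 0.256 and 0.236 in wild-type libraries A, B and C and 0.303, 0.270 and 0.216 in those of *pep2*. In *pep1-1* it was 0.839, 0.870 and 0.786, above every other library, so *AaSPL15* came nearer to *AaSPL9* per length but stayed below it. These ratios rest on the lengths implied by the authors' FPKM. The 9 genes together summed to 103 ± 9.78 CPM per kb in wild-type apices (SD, n = 3), 119 ± 4.72 in *pep1-1* and 102 ± 6.52 in *pep2*. Of the difference of 15.6 between the *pep1-1* and wild-type sums, 7.26 came from *AaSPL15* and 6.997 from *AaSPL3*, whose change did not pass the test. The *AaSPL3* portion rested on replicate A of the wild type, at 12.6 CPM per kb against 25.8 and 25.7 in B and C. Without that library, an alternative chosen after seeing the data, the difference of the sums was 9.97, of which 2.62 came from *AaSPL3* and 7.11 from *AaSPL15*. *AaSPL15* made up 2.07% to 2.18% of the sum in wild-type libraries, 6.54% to 9.23% in *pep1-1* and 2.25% to 4.58% in *pep2*. The 3 most abundant members made up between 57.6% and 70.9% in every library.

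Within genotypes, the members did not vary in the same way from library to library. *AaSPL9* was highest in replicate A of all 3 genotypes, and *AaSPL3* and *AaSPL11* were lowest there in all 3. Over the 9 libraries, Pearson's r of log2(CPM + 2) was -0.88 between *AaSPL2* and *AaSPL9* and -0.91 after the genotype means were removed. Between *AaSPL11* and *AaSPL13A* it was 0.79 and 0.82. These were the lowest and the highest r over the 9 libraries among 28 pairs of members, given as a description, and the libraries share the replicate A pattern. Of the 6 leaf photosynthetic genes, 2 (*LHCB3* and *LHCA1*) were likewise highest in replicate A of each genotype and 4 were not, and 3 of 7 vascular and 2 of 7 meristem markers were; their part in the pattern was not tested.

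**Figure D4:**
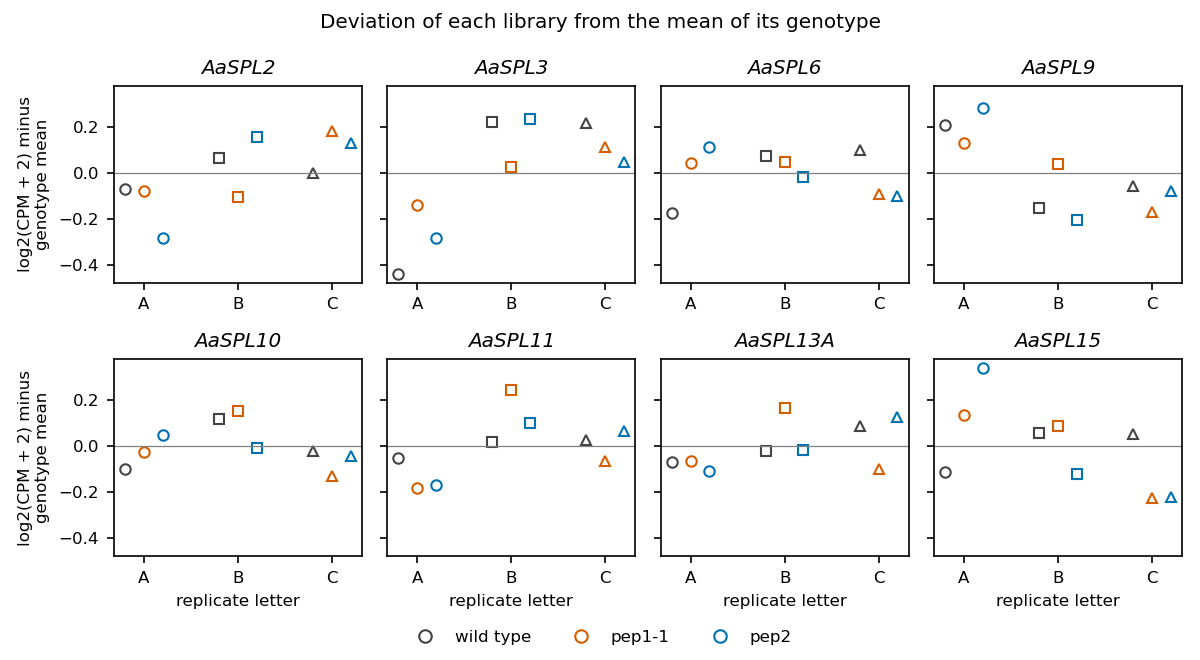
Deviation of each library from the mean of its genotype in log2(CPM + 2) (vertical axis) by replicate letter, for the 8 tested *SPL* genes; colours are genotypes. *AaSPL9* lies above its genotype mean in replicate A of all 3 genotypes, and *AaSPL3* and *AaSPL11* lie below it.

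The *SPL* genes outside the chosen set served as a comparison. Of 7 loci, 7 had a gene and 6 could be tested. By edgeR 0 of the 6 passed an adjusted p of 0.05 in any comparison, and 0 were called by DESeq2 or limma-voom. In each comparison 1 of the 6 had an unadjusted p under 0.05, against 6.37%, 15.3% and 19.1% of all tested genes. In *pep1-1* over the wild type that gene was *AaSPL8*, whose Arabidopsis ortholog acts in anther development. Its wild-type libraries A, B and C were at 8.45, 9.49 and 9.90 CPM and those of *pep1-1* at 9.88, 13.3 and 19.3, which overlapped (log2 fold change 0.60, SE 0.25, adjusted p = 0.750 by edgeR). In both other comparisons it was *AaSPL12*. Its *pep2* libraries stood at 26.6, 25.6 and 24.9 CPM, above all *pep1-1* libraries at 20.9, 20.04 and 20.5, with a log2 fold change of 0.33 (SE 0.09) and an adjusted p of 0.0938 by edgeR; without replicate A of the wild type that p was 0.0457. *AaSPL1*, *AaSPL7*, *AaSPL14* and *AaSPL16* had log2 fold changes from -0.17 to 0.10.

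The genes around the *SPL* step in the pathway were read from the same libraries. For miRNA production and action, 13 of 21 loci, those of *MIR156* and *MIR172*, matched no row and were not analysed here. The 8 other genes, among them *DCL1* and *AGO1*, had log2 fold changes from -0.22 to 0.25, and 0 were called by edgeR, DESeq2 or limma-voom and 0 had an unadjusted p under 0.05. Of the regulators of *MIR156* transcription, such as *VAL1* and *CLF*, 9 of 11 were tested and 0 were called by any of the 3 tools, with values from -0.40 to 0.43 and an unadjusted p under 0.05 for 0, 1 and 1 of them in the 3 comparisons by edgeR. Of the DELLA and TOPLESS-type proteins that bind SPL proteins, 9 were tested and 0 were called by any of the 3 tools, with values from -0.47 to 0.43 and an unadjusted p under 0.05 for 2, 0 and 3 of them. By edgeR 6.37%, 15.3% and 19.1% of all tested genes had an unadjusted p under 0.05 in the 3 comparisons.

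Among the AP2-like floral repressors that miR172 targets, 5 of 6 loci had a gene and all 5 were tested. *AaSMZ* had wild-type libraries A, B and C at 9.47, 7.40 and 6.60 CPM, *pep1-1* libraries at 3.59, 2.81 and 2.42, and *pep2* libraries at 14.3, 15.3 and 15.8. The 3 genotypes did not overlap, with *pep1-1* lowest and *pep2* highest. It fell by 1.40 on the log2 scale in *pep1-1* over the wild type (SE 0.18; adjusted p = 0.0155) and was 2.35 higher in *pep2* than in *pep1-1* (SE 0.18; adjusted p = 0.000252), both by edgeR. In *pep2* relative to wild-type apices the value was 0.95 (edgeR adjusted p = 0.0196), below the fold limit. The first of these calls was lost without replicate B of the wild type (adjusted p = 0.0731) or replicate B or C of *pep1-1* (0.0869 and 0.0781). *AaTOE3* had wild-type libraries at 2.70, 2.09 and 2.25 CPM and *pep2* libraries at 4.92, 5.64 and 5.43, a log2 fold change of 1.19 (SE 0.19; adjusted p = 0.0166 by edgeR). This call was lost without replicate B or C of either genotype (adjusted p 0.0689 to 0.0945). The *pep1-1* libraries of *AaTOE3* stood at 3.86, 2.81 and 4.14 CPM, also above all wild-type libraries and below all *pep2* libraries. By edgeR it was not called in *pep1-1* over the wild type (0.63, adjusted p = 0.536) or in *pep2* over *pep1-1* (0.56, adjusted p = 0.145). *PEP2* itself was higher in *pep2* than in *pep1-1* by 0.52 on the log2 scale (SE 0.11; edgeR adjusted p = 0.0398), under the fold limit.

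Among *SPL* targets and flowering genes, 10 of 13 loci had a gene and 6 were tested. *AaSOC1*, the ortholog of a floral integrator that acts with SPL15 in Arabidopsis, had wild-type libraries A, B and C at 1.60, 1.51 and 1.54 CPM, *pep1-1* libraries at 8.93, 8.08 and 9.37, and *pep2* libraries at 5.998, 6.41 and 5.04. It was called higher in both mutants, by 2.50 (SE 0.16; adjusted p = 0.000112) and 1.90 (SE 0.16; adjusted p = 0.000533) on the log2 scale by edgeR. Its *pep2* libraries lay below its *pep1-1* libraries, but it was not called there by edgeR (log2 fold change -0.59, SE 0.14, adjusted p = 0.0556). In *pep2*, *AaSOC1* was above all wild-type libraries while *AaSPL15* overlapped them; whether the changes of these genes differ was not tested. *AaTFL1*, the ortholog of a gene that keeps the shoot vegetative, had a log2 fold change of -1.36 in *pep2* over the wild type (SE 0.25; adjusted p = 0.0284 by edgeR), from libraries at 12.8, 20.8 and 20.6 CPM to libraries at 6.44, 8.11 and 6.77. This call was lost without replicate B or C of the wild type or any 1 *pep2* library (adjusted p 0.0774 to 0.130). The *pep1-1* libraries of *AaTFL1* stood at 10.2, 19.0 and 13.8 CPM, above all *pep2* libraries. In *pep2* over *pep1-1* its log2 fold change was -1.01 (SE 0.25, adjusted p = 0.0698 by edgeR), which edgeR did not call. The tools differed here: DESeq2 called 1 gene of this list between the mutants, and limma-voom called 0. By edgeR, *AaTFL1* was the only tested gene of the list past the fold limit there. *AaFUL*, which SPL15 activates in Arabidopsis, had only 18 reads in all wild-type libraries, 7 in *pep1-1* and 29 in *pep2* and was not tested.

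**Figure D5:**
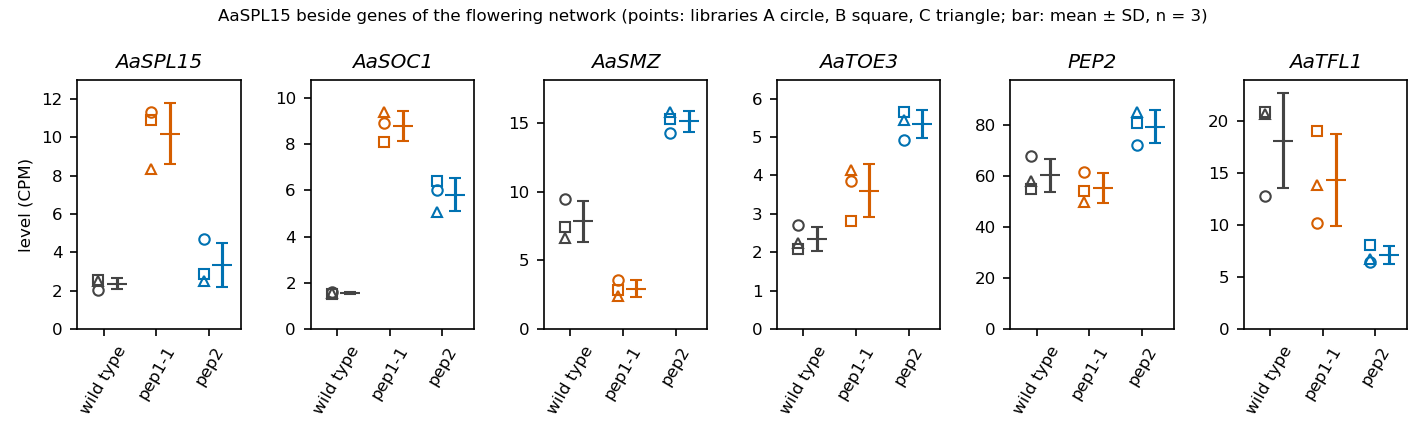
Level in CPM (vertical axis from 0, scale set per gene) of *AaSPL15* beside *AaSOC1*, the AP2-like genes *AaSMZ*, *AaTOE3* and *PEP2*, and *AaTFL1* in 3 libraries per genotype, with bars at the mean ± SD. In *pep2*, *AaSOC1* lies between 5.04 and 6.41 CPM, above all wild-type libraries, while *AaSPL15* overlaps the wild type.

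The tested genes whose levels over the 9 libraries were most like those of *AaSPL15* were picked by Pearson's r of log2(CPM + 2), as a description. They were an exostosin family gene (AALP_AA7G192100; r = 0.97), *NF-YA10* (AALP_AA8G060300; 0.95), a gene of unknown function with a DUF607 domain (AALP_AA2G064300; 0.95), a phosphofructokinase family gene (AALP_AA5G273800; 0.95) and an HSP20-like chaperone gene (AALP_AA4G035800; 0.94). *NF-YA10*, a subunit of a CCAAT-binding transcription factor, had means of 0.430 CPM for the wild type, 2.09 for *pep1-1* and 0.526 for *pep2*; by edgeR it was not called in *pep1-1* over the wild type (log2 fold change 2.20, adjusted p = 0.0583) and was called in *pep2* over *pep1-1* (-1.97, adjusted p = 0.0279). The HSP20-like gene had means of 0.390, 2.12 and 0.825 CPM; it was called in *pep1-1* over the wild type (2.49, adjusted p = 0.0265 by edgeR) and not in *pep2* over *pep1-1* (-1.33, adjusted p = 0.0641). The exostosin and phosphofructokinase genes had the same order of genotypes with log2 fold changes of 0.38 and 0.32 in *pep1-1* over the wild type, and neither was called, nor was the DUF607 gene (0.62; adjusted p = 0.144 by edgeR).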

How the data were processed

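Poly(A) RNA of 9 libraries (TruSeq, 100-bp single-end reads) was mapped by the authors with TopHat and quantified with Cuffdiff, whose versions and strand setting the labels and methods did not name. From the deposited table, estimated counts per gene and library (raw reads, fractional for 64 genes, none a member) and the authors' FPKM per genotype were used. Libraries carry letters in the table and numbers in the labels, which could not be matched beyond the genotype, so 1 column per library was used. The 18 other library columns (scaled reads and FPKM) were left out, although the order of levels had been planned on FPKM per library; CPM over the length implied by the authors' FPKM took their place. Fold changes, p-values and q-values, and 6 lists of changed genes, hold the authors' comparisons and were not used. Orthologs, names and coordinates are those of the table.

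Counts were rounded, scaled by TMM (factors 0.981 to 1.03) and filtered (filterByExpr, minimum count 10, total 15). All 9 libraries were fitted together with edgeR 4.0.16 quasi-likelihood tests (R 4.3.3), Benjamini-Hochberg adjusted over 21713 genes. Simulated counts for *pep1-1* over the wild type with 21713 genes gave calls for 85 of 100 genes changed by 1.5 on the log2 scale and 99 of 100 changed by 3. Of 21355 unchanged genes 5 were called. The changed genes were drawn from those above a minimum mean level. Simulated libraries varied independently, without the replicate A pattern of the data, so these rates may not hold for it. Alternatives were DESeq2 1.42.0 (test and size factors), limma-voom 3.58.1, library size alone, other low-count filters, the 6 compared libraries alone, a replicate block, and leaving out the A libraries or each library. Libraries are biological replicates by the study's methods. Deviations of same-letter libraries correlated at 0.626, 0.385 and 0.319 between the wild type and *pep1-1*, at 0.472, 0.388 and 0.0138 between the wild type and *pep2*, and at 0.312, 0.0769 and -0.0273 between the mutants. The main fit had genotype as its only term and did not pair libraries by letter. Letters entered only through the replicate block, an alternative run for all comparisons. Members, lists and tests were chosen with earlier results of these data known. Named genes were all members, the other *SPL* genes, up to 4 genes per list with adjusted p at most 0.05, *SOC1*, *FUL*, *TFL1*, *PEP2* and *SMZ*, and the 5 genes most like *AaSPL15*; markers were named after their values were seen.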

Additional observations from a re-analysis of the deposited data

Results flagged for a closer look

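The change of *AaSPL15* from the wild type differed between the mutants: it was 2.09 in *pep1-1* and 0.51 in *pep2* on the log2 scale. The difference, which is the same contrast as *pep2* over *pep1-1*, was -1.59 (adjusted p = 0.0103 by edgeR), and the 3 libraries of each mutant did not overlap.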

How the results depend on the processing

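*AaSPL15* kept its direction in all 18 alternatives. In *pep1-1* over the wild type its log2 fold change was 1.93 to 2.10 over the alternatives that left out no single library and 2.01 to 2.22 when 1 library was left out, with adjusted p from 0.00217 to 0.0530; it lost its call only without replicate B of the wild type, so the number of members called higher, and the number past adjusted p alone, ranged from 0 to 1. In *pep2* over *pep1-1* the call held in all alternatives (log2 -1.92 to -1.42 and edgeR adjusted p 0.00556 to 0.0491 with 1 library left out). In *pep2* over the wild type it was never called (0.17 to 0.67 with 1 library left out). With the replicate block, *AaSPL15* was at 2.08 (adjusted p = 0.00370) in *pep1-1* over the wild type and -1.60 (0.00215) in *pep2* over *pep1-1*, and the block changed no call of a member; *AaSPL10* in *pep2* over *pep1-1* reached an adjusted p of 0.0717.

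Small, uncalled changes turned sign. With library size alone, *AaSPL2* and *AaSPL6* in *pep1-1* over the wild type were -0.015 and -0.019, *AaSPL7* was -0.013, and *AaSPL1* in *pep2* over *pep1-1* was -0.015; with limma-voom *AaSPL2* in *pep1-1* was -0.0032. Without the A libraries, *AaSPL2*, *AaSPL6* and *AaSPL11* in *pep2* over the wild type were 0.010, -0.12 and 0.036, *AaSPL6* in *pep1-1* was -0.11, and in *pep2* over *pep1-1* *AaSPL6*, *AaSPL9* and *AaSPL1* were -0.0065, -0.063 and -0.013. With 1 library left out, ranges that crossed 0 in *pep1-1* over the wild type were -0.093 to 0.064 (*AaSPL2*), -0.088 to 0.060 (*AaSPL6*), -0.018 to 0.24 (*AaSPL11*), -0.069 to 0.073 (*AaSPL13A*), -0.080 to 0.027 (*AaSPL1*), -0.033 to 0.029 (*AaSPL7*), -0.024 to 0.11 (*AaSPL14*) and -0.042 to 0.023 (*AaSPL16*). In *pep2* over the wild type they were -0.18 to 0.043 (*AaSPL2*), -0.34 to 0.11 (*AaSPL3*), -0.043 to 0.11 (*AaSPL6*), -0.016 to 0.29 (*AaSPL9*), -0.094 to 0.060 (*AaSPL11*), -0.075 to 0.015 (*AaSPL1*) and -0.15 to 0.25 (*AaSPL8*). In *pep2* over *pep1-1* they were -0.19 to 0.036 (*AaSPL2*), -0.030 to 0.10 (*AaSPL6*), -0.14 to 0.15 (*AaSPL9*) and -0.047 to 0.044 (*AaSPL1*). The causes were not tested.

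With only the 6 libraries compared, *AaSMZ* lost its call in *pep1-1* (-1.40; adjusted p = 0.0897); it gained one in *pep2* over the wild type without the A libraries (1.14) or without replicate A of the wild type (1.101). Over all genes the calls numbered 35, 181 and 290 in the 3 comparisons and ranged from 15 to 70, 69 to 541 and 92 to 723. The planned check of the order of the members by CPM over an implied length is not given, since that length comes from the authors' FPKM and fixes the order. Reads limit *AaSPL4* and *AaSPL5*: with no low-count filter their log2 fold changes were -0.62 and 1.01, 0.84 and 0.82, and 1.47 and -0.19 in the 3 comparisons, none with an adjusted p under 0.228.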
